A study of Mus musculus with 6 samples.

Results

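DNA methylation is written by the DNA methyltransferases and taken off again by way of the TET enzymes. Dnmt1 copies the pattern onto the new strand after replication, and Dnmt3a and Dnmt3b set methylation at sites that had none. Tet1, Tet2 and Tet3 oxidise 5-methylcytosine, the first step of its removal. Mutations of DNMT3A and TET2 are common in human clonal haematopoiesis and myeloid neoplasms, and TET2 mutations often accompany SRSF2 P95H there. These 6 genes were followed by gene name through every variant list of an exome study of mice with the Srsf2 P95H change. They held 109 of the 177834 distinct sites in the 6 all-variant lists and 12 of the 10375 calls in the marrow-against-ear somatic lists.

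Genomic DNA came from whole bone marrow and from matched ear tissue of animals 54, 108 and 136, so that 3 marrow samples were set against 3 ear samples. All animals were C57BL/6, animals 54 and 108 male and 136 female, and all carried Srsf2 P95H on 1 allele and had been given tamoxifen. They were moribund when sampled, and 50 to 60 weeks is given both as their age and as the time after tamoxifen. The sample labels name R26CreERT2, an inducible Cre active in most tissues, for all 3, whereas the design text gives 1 animal as hScl-CreERT R26eYFP, a Cre of blood stem and progenitor cells, without its number. There was no animal without the Srsf2 change, so nothing here can be set against a wild-type mouse. Whole marrow is a mixture of cells, and a variant carried by few of them and a variant carried by none cannot be told apart at low depth.

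Median depth at coding sites was 80, 94 and 68 reads in marrow of animals 54, 108 and 136, and 114, 92 and 45 in ear. Every sample listed 2 base changes in codon 95 of Srsf2. The first was read in 47.9%, 19.3% and 49.1% of reads in marrow of animals 54, 108 and 136, against 42.0%, 40.3% and 62.2% in their ears. The ear therefore also carried the allele. Below, a site is called inherited when marrow and ear of the same animal both list it, and private when 1 tissue lists it. Inherited is thus a name for the listing, and germline origin was not tested. The lists hold variant sites alone and give no depth where nothing was called.

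Dnmt1 stood apart from the other 5 genes in the all-variant lists. Animal 54 had 65 inherited sites there, animal 108 had 66 and animal 136 had 0. Dnmt3a, Dnmt3b, Tet1, Tet2 and Tet3 had no inherited site in any of the 3 animals. In total 70 distinct Dnmt1 sites were inherited, 61 of them in both animals, which is 93.8% of the sites of animal 54 and 92.4% of those of animal 108. All 65 sites of animal 54 were also listed in at least 1 tissue of animal 108, and 65 of the 66 of animal 108 in at least 1 tissue of animal 54. The shared sites ran over 37.9 kb, between positions 20904558 and 20942444 of chromosome 9 (GRCm38). Dnmt1 itself spans 20907206 to 20959888 on the reverse strand there. The first of these shared positions lies past the gene's 3′ end.

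**Figure D1:**
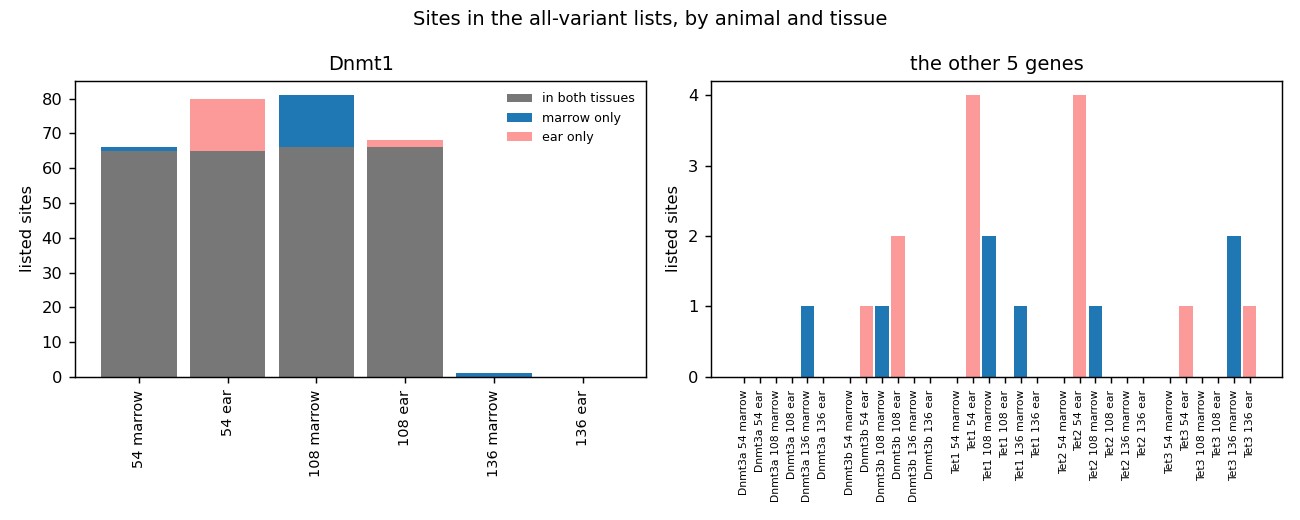
Number of sites (y axis) that each all-variant list holds in Dnmt1 (left panel) and in the other 5 genes (right panel), by animal and tissue, marrow left of ear. Grey bars are sites listed in both tissues of the animal, and coloured bars are sites listed in 1 tissue; grey appears for Dnmt1 in animals 54 and 108 and for none of the other genes.

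The inherited Dnmt1 variants were present on close to 50% of reads. Over the 65 inherited sites of animal 54 the median variant fraction was 49.3% for marrow reads (range 16.7 to 82.4%) and 49.6% for ear reads (26.9 to 69.8%). For the 66 sites of animal 108 it was 48.3% for marrow (16.4 to 66.7%) and 44.2% for ear (18.8 to 70.8%). Median depth at these sites in animal 54 was 39 marrow reads and 82 ear reads, and in animal 108 it was 59 marrow reads and 51 ear reads. The means lay close together too. Over sites, marrow of animal 54 averaged 49.4% and its ear 49.6%, while marrow of animal 108 averaged 47.0% and its ear 44.9%. Marrow minus ear was -0.22 percentage points in animal 54 and 2.14 in animal 108, with a mean of 0.96 ± 1.67 (SD, n = 2 animals). A two-sided exact permutation test that flips the sign of each pair gave p = 1, where 2 pairs cannot go below 0.5.

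**Figure D2:**
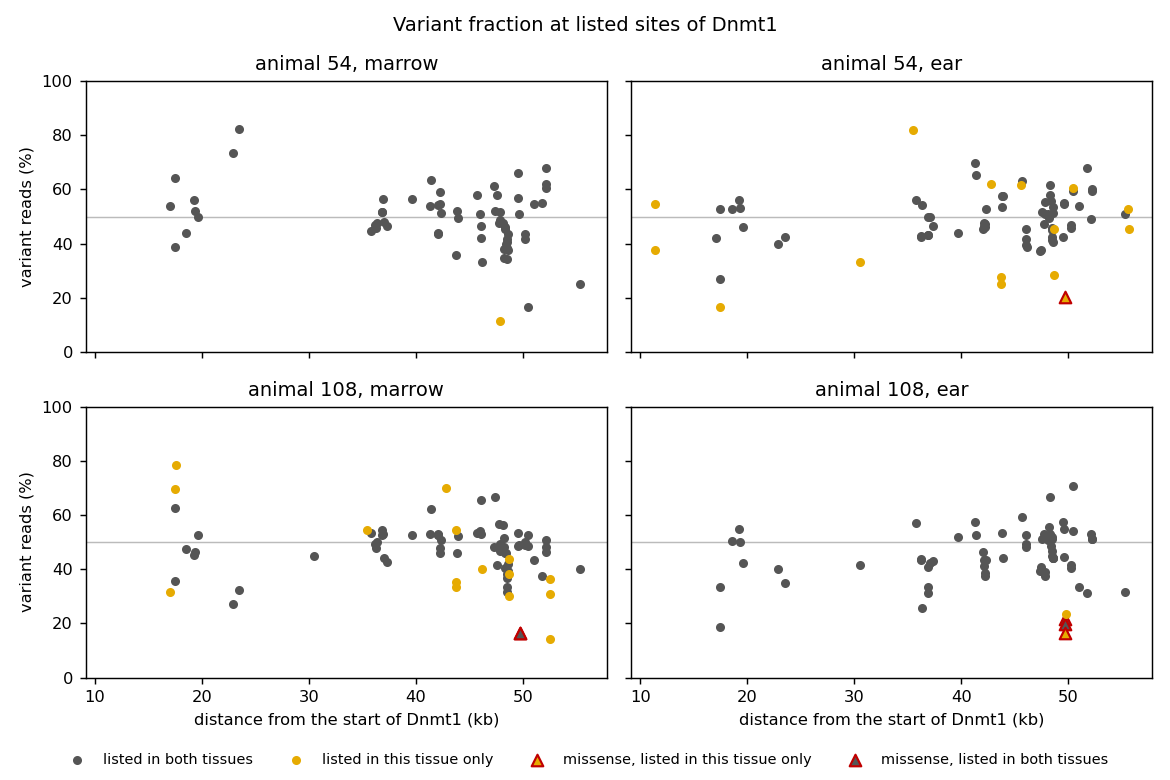
Percent of reads with the variant (y axis) at each listed Dnmt1 site against its distance from the start of the gene in kb (x axis), for marrow (left) and ear (right) of animals 54 and 108. Grey points are listed in both tissues, yellow points in that tissue alone, and triangles mark missense sites; most points lie around the line at 50%, and the triangles lie between 16.3 and 21.6%.

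Site by site, marrow and ear were compared by a two-sided Fisher's exact test on the reads of both alleles, within each animal and over every site where marrow and ear each had 10 reads or more. Among 131 tests at Dnmt1 sites, none reached an adjusted p of 0.05 (Benjamini-Hochberg over all sites of the animal), and 11 had an unadjusted p under 0.05. Stratified by animal with the Cochran-Mantel-Haenszel test, 0 of the 70 sites passed as well. In the whole lists of animals 54, 108 and 136 the share of sites that passed was 0.0346%, 0.0327% and 0.0181%. The unadjusted share under 0.05 was 10.8% for Dnmt1 sites against 8.41% of all sites in animal 54, and 6.06% against 7.43% in animal 108. The lowest p in animal 54 was 0.00838 (adjusted p = 0.392, Fisher's exact test), at position 20936406 in intron 8. There 14 of 17 reads (82.4%) carried the variant in marrow and 17 of 40 (42.5%) in ear. All 14 variant reads of the marrow lay on the forward strand, and so did its 3 reference reads. In the ear 23 reference reads and 16 variant reads lay on that strand, and 1 variant read on the other. In animal 108 the same site had 11 of 34 reads (32.4%) in marrow and 8 of 23 (34.8%) in ear. VarScan2, a caller that compares read counts of 2 samples, had marked this site in animal 54 as a loss of heterozygosity, with a p of 0.00871 in the authors' deposited table. The lowest p in animal 108 was 0.00966 (adjusted p = 0.444, Fisher's exact test), at a splice-region site 5 bases before an exon, at position 20912020, with 114 of 232 reads (49.1%) in marrow and 91 of 244 (37.3%) in ear.

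Most of the inherited Dnmt1 sites were intronic: 55 of 65 in animal 54 and 54 of 66 in animal 108. Each animal had 7 synonymous sites and 2 splice-region sites, the same 9 in both. All 9 had variant reads on both strands in all 4 samples. Missense changes made up 40.2%, 35.4% and 40.6% of all inherited missense and synonymous sites in animals 54, 108 and 136. Dnmt1 had 0 inherited missense sites beside 7 synonymous ones in animal 54, and 2 beside 7 in animal 108. Those 2 had low fractions, given below. The inherited Dnmt1 coding sites near a fraction of 50% were all synonymous or splice-region. Genes with an inherited coding site made up 5.85%, 8.87% and 2.43% of 21900 RefSeq protein-coding genes in those animals, and of the 6 genes it was Dnmt1 in animals 54 and 108, and no gene in animal 136.

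The synonymous sites fell in 3 stretches of the protein, whose domains are named here from the textbook layout of Dnmt1. The codons of residues 436 and 517, of 1620, lie in the replication foci targeting sequence, which brings the enzyme to newly replicated DNA and also covers the catalytic site. At residue 436 the variant had 77 of 173 reads (44.5%) in marrow of animal 54 and 140 of 249 (56.2%) in its ear, and 116 of 218 (53.2%) in marrow of animal 108 and 128 of 224 (57.1%) in its ear. At residue 517 it had 101 of 210 marrow reads (48.1%) and 126 of 252 ear reads (50.0%) for animal 54, and 103 of 233 marrow reads (44.2%) and 81 of 191 ear reads (42.4%) for animal 108. At residue 436 both ear values lay above both marrow values, whereas at residue 517 marrow and ear overlapped. The adjusted p at residue 436 was 0.501 in animal 54 and 1 in animal 108 (Fisher's exact test). The codon of residue 755, at the border of the first bromo-adjacent homology domain, had the variant on 35 of 55 marrow reads (63.6%) and 51 of 78 ear reads (65.4%) of animal 54. For animal 108 these were 36 of 58 marrow reads (62.1%) and 31 of 59 ear reads (52.5%). The codons of residues 1241, 1271, 1299 and 1321 lie in the C-terminal catalytic domain, which transfers the methyl group. Their variant fractions ranged from 40.0 to 56.2% in marrow and from 41.5 to 55.8% in ear of the 2 animals.

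Close to the last of these codons lay 3 missense changes at much lower fractions. They replaced asparagine 1356 and isoleucine 1357, in exon 34 of 39, 6 to 10 bases before the end of that exon. I1357K, at position 20910146, had 9 of 55 reads (16.4%, Clopper-Pearson 95% interval 7.77 to 28.8%) in marrow of animal 108 and 11 of 51 (21.6%, 11.3 to 35.3%) in its ear. In animal 54 it was listed in ear, with 17 of 83 reads (20.5%, 12.4 to 30.8%), and not in marrow. N1356T, at position 20910149, had 9 of 55 reads (16.4%) in marrow of animal 108 and 10 of 51 (19.6%) in ear. N1356H, at position 20910150, had 8 of 49 reads (16.3%) in ear of animal 108 alone. All 3 had variant reads on both strands. The synonymous site at residue 1321 in the same exon had 27 of 55 reads (49.1%, 35.4 to 62.9%) in marrow of animal 108 and 32 of 72 (44.4%, 32.7 to 56.6%) in ear. Its interval did not overlap those of I1357K and N1356T in the marrow of animal 108, but it did in the ear, where that of N1356T was 9.82 to 33.1%. Such intervals count reads as if each were a separate molecule, which cannot be checked without molecular identifiers. Mean mapping quality at the 3 missense sites was 38 to 40, against 40 to 42 at the 7 synonymous sites, and its part in these low fractions was not tested.

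The ear of animal 108 also listed an insertion of 15 bases in intron 34, 30 to 34 bases from the 3 missense sites, in 8 of 34 reads (23.5%), all on the same strand. It is shown because it lies beside the low-fraction missense sites. A deletion of 4 bases in intron 31 is shown for contrast, as a change of length that went with the inherited sites. Both are given on the forward strand of GRCm38, with inserted or deleted bases in capitals.
Insertion, chr9:20910116-20910116, reference: a
Insertion, variant allele: aGTTCCTACCTCGTTT
Deletion, chr9:20912059-20912066, reference: taatCAAT
Deletion, variant allele: taat
In animal 54 the deletion had 61 of 125 marrow reads (48.8%) and 93 of 183 ear reads (50.8%). In animal 108 it had 73 of 156 marrow reads (46.8%) and 61 of 157 ear reads (38.9%). It was thus found at the fraction of the inherited sites in all 4 samples, whereas the insertion was listed in 1 sample at a fraction like that of the missense changes.

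The surroundings of the 6 genes differed in the same way as the genes. In the gene and 0.5 Mb on either side, animal 54 had 162 inherited single nucleotide sites for Dnmt1, animal 108 had 166 and animal 136 had 2. Around Dnmt3a there were 4, 2 and 1 in animals 54, 108 and 136, and around Dnmt3b 2, 3 and 1. Around Tet1 there were 1, 2 and 0, around Tet2 0, 2 and 1, and around Tet3 7, 3 and 8. The window of 1 Mb that holds Dnmt1 had 135 sites in animal 54, and 58 of its 1462 windows with a site (3.97%) had as many. In animal 108 it had 140 sites, reached by 84 of 1582 windows (5.31%). The median window with a site held 3 in each of these 2 animals. Dnmt1 thus lay in a window far denser than most, and windows without a site were not counted. Of the 35 other protein-coding genes within 0.5 Mb of Dnmt1, 9, 8 and 1 in animals 54, 108 and 136 had an inherited coding site, and 4, 4 and 0 a protein-altering one. Tet2 in animal 54 lay in a gap between dense windows: the 4 windows nearest its centre held 0 sites each, while windows centred 2.5 Mb before and 4.5 Mb after it held 131 and 204.

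**Figure D3:**
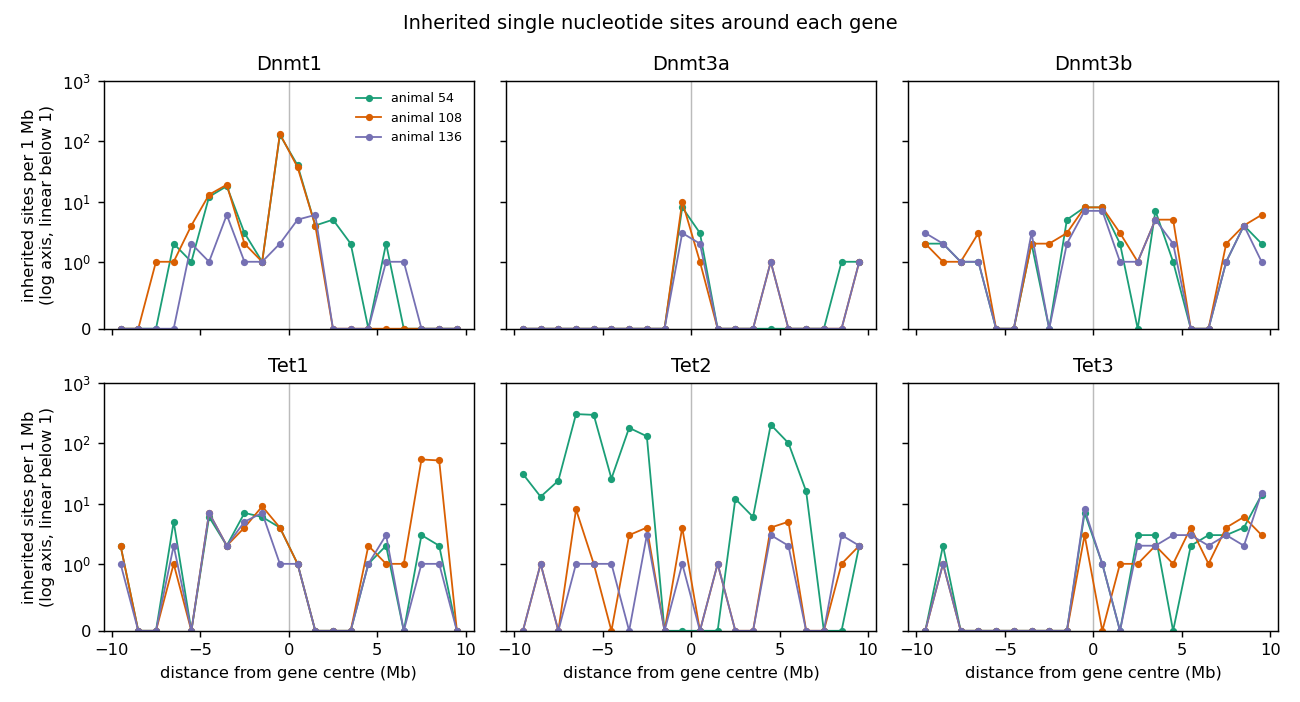
Inherited single nucleotide sites per 1 Mb window (y axis, log above 1) against distance from the centre of each gene in Mb (x axis), with a line per animal. Around Dnmt1 the lines of animals 54 and 108 peak together, with 128 and 133 sites in the window just before the gene's centre, and that of animal 136 does not.

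The tissue with more private sites differed between animals. The 6 genes had 1, 19 and 5 sites listed in marrow alone in animals 54, 108 and 136, and 25, 4 and 1 listed in ear alone. Marrow exceeded ear in animals 108 and 136, and ear exceeded marrow in animal 54. The mean was 8.33 ± 9.45 in marrow and 10 ± 13.1 in ear (SD, n = 3 each). The difference of -1.67 ± 20.1 had p = 1 by the two-sided exact permutation test over the signs of the pairs, where 3 pairs cannot go below 0.25. The whole lists leaned the same way in each animal, with 10527, 29781 and 14847 sites in marrow alone and 35213, 17296 and 13160 in ear alone. The part of this in the counts of the 6 genes was not tested.

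Many private Dnmt1 sites were also listed in the other of animals 54 and 108. Of the 16 in animal 54, 10 were listed in animal 108, 4 of them as inherited. Of the 17 in animal 108, 10 were listed in animal 54, 4 of them as inherited. Their depth was low: a median of 16 reads at the 15 ear-private sites of animal 54 and of 17 at the 15 marrow-private sites of animal 108. Animal 136 listed 1 Dnmt1 site, in marrow, a CA repeat of intron 2 with 3 of 15 reads (20%), which animals 54 and 108 listed too.

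The other 5 genes had 20 private sites and no other sites in the all-variant lists. Of these, Tet1 had 6, Tet2 5, Dnmt3b and Tet3 4 each and Dnmt3a 1. None changed a codon: 17 were intronic, 2 lay in the 3′ UTR of Tet1 and 1 in the flank of Dnmt3b. Variant reads numbered 2 to 7 with a median of 3, at a median depth of 13 reads. In 20 of the 21 listings (95.2%) all variant reads lay on 1 strand, against 73.4 to 85.6% of private listings over the whole lists and 38.8 to 53.1% of inherited ones. In many of the 20 the reference reads lay on that strand alone as well. In others they lay on both strands or on the opposite one. A single site was listed in more than 1 sample, an intronic T to G change of Tet1 at position 62861620 of chromosome 10. It had 5 of 13 reads (38.5%) in marrow of animal 108 and 4 of 9 (44.4%) in marrow of animal 136, and was in no ear list. In both samples all variant reads lay on the reverse strand and all reference reads on the forward strand. Sites private to marrow in both of these animals numbered 1761 in all, and 1449 of them had variant reads on 1 strand in both.

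VarScan2 had made a somatic call in 1 of the 6 genes, Tet3, in animal 136. The call lies in intron 4, at position 83380089 of chromosome 6, with 5 of 15 reads (33.3%) in marrow and 0 of 16 in ear. A count of 0 of 16 reads allows a share of up to 18.8%, taken as 3 reads of the total, and the Clopper-Pearson 95% interval reaches 20.6%. Its somatic p was 0.0177 in the authors' deposited table. The marrow list of animal 136 held the same change with 6 of 16 reads, all on the reverse strand. No VarScan2 call in the 6 genes changed a protein.

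Strelka, which models the allele fractions of the 2 tissues jointly, had made 10 calls in the 6 genes, of which 9 were missense and 1 lay in the 3′ UTR of Tet2. Animal 54 had 3 missense calls (exact Poisson 95% interval 0.619 to 8.77), animal 108 had 2 (0.242 to 7.22) and animal 136 had 4 (1.09 to 10.2). The counts overlapped within these intervals. Genes with a protein-altering Strelka call made up 5.01%, 2.74% and 3.72% of 21900 protein-coding genes in animals 54, 108 and 136, and 10.5% in at least 1 animal. Of the 6 genes, 2 in animal 54, 2 in animal 108 and 3 in animal 136 had such a call, and 4 had it in at least 1 animal. Tet2 and Tet3 had none. None of the 10 calls was in an all-variant list of any sample, and over all Strelka single nucleotide calls 13.4% were in the marrow list of the same animal. The Strelka lists give no read counts, so the variant fraction and depth of these 10 calls are unknown.

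**Figure D4:**
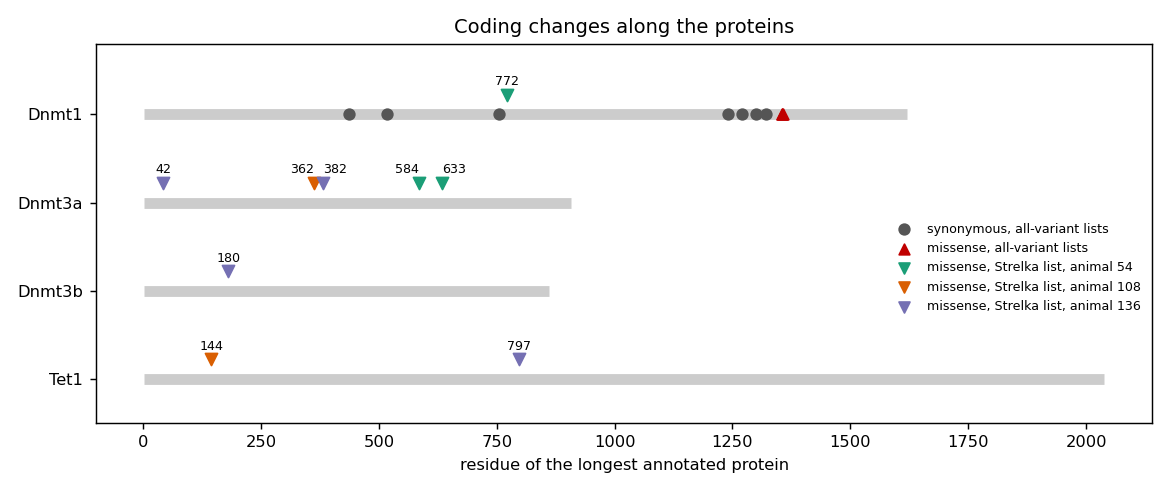
Coding changes in Dnmt1, Dnmt3a, Dnmt3b and Tet1 by residue of the longest annotated protein (x axis; grey bars show the protein lengths). Circles and upright triangles are synonymous and missense sites of the all-variant lists, and inverted triangles with residue numbers are Strelka calls by animal; 5 of the 9 Strelka calls lie in Dnmt3a, and each animal has at least 1 there.

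Dnmt3a held 5 of the 9 missense calls and was called in all 3 animals. Genes called in all 3 animals numbered 10, or 0.0457% of protein-coding genes. Among all genes 3 had at least 5 protein-altering calls, and the other 2, Abca13 with 6 and Syne2 with 5, are large: the Syne2 protein has 6874 residues and that of Dnmt3a 908. Of the 10 genes called in all 3 animals, 2 encode a shorter protein than Dnmt3a. Per 1000 residues Dnmt3a had 5.51 calls, which placed it at rank 4 of the 45 genes with at least 3 calls, a ranking chosen after the calls were seen. Genes with fewer calls were not ranked, and a short protein among them could have a higher value. The rank therefore holds only among these 45. The 5 calls lay at 5 different residues, so no position recurred.

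Along Dnmt3a the calls fell in the N-terminal part, between its first 2 domains, in the second of these and at the start of the catalytic domain. A42S in animal 136 (exon 3 of 23) lies in the N-terminal region, which is not part of the shorter form of 689 residues. R362H in animal 108 (exon 9) and A382T in animal 136 (exon 10) lie between the PWWP domain, which reads methylated histone H3, and the ADD domain, which senses unmethylated H3 tails. H584N in animal 54 (exon 15) lies in the ADD domain. L633Q in the same animal (exon 16) lies at the start of the catalytic domain. In the form of 689 residues these 4 changes fall at residues 143, 163, 365 and 414. No 2 animals had a call in the same domain, apart from the stretch that holds R362H and A382T.

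The quality that Strelka gave in the authors' deposited table set R362H apart. It was 76 for R362H, 43 for L633Q, 24 for H584N, 18 for A42S and 16 for A382T. Of all 6412 Strelka single nucleotide calls 1.43% had a quality of at least 76, and the median was 24. R362H is a G to A change at position 3896660 of chromosome 12, L633Q a T to A change at 3900335, and H584N a C to A change at 3899958. The lower pair were a G to T change at 3849695 for A42S and a G to A change at 3896919 for A382T. At a quality of at least 30, which 32.2% of all Strelka calls reached, 2 of the 5 Dnmt3a calls remained, in animals 54 and 108.

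The other 4 missense calls lay in Dnmt1, Dnmt3b and Tet1. D772G of Dnmt1 in animal 54 (position 20918462, exon 24 of 39) lies in the first bromo-adjacent homology domain and had a quality of 23 in the authors' deposited table. The inherited site at residue 755, 50 bases away, was covered by 55 marrow reads and 78 ear reads in that animal. V180I of Dnmt3b in animal 136 (position 153665964 of chromosome 2, exon 7 of 24) lies before its PWWP domain and had a quality of 37 in the authors' deposited table. Tet1 was called in 2 animals. V144L in animal 108 (position 62879585, exon 2 of 13) lies before the CXXC domain, which binds unmethylated CpG, and had a quality of 33 in the authors' deposited table. E797G in animal 136 (position 62839906, exon 4) lies between the CXXC domain and the catalytic region at the C-terminal end, and had a quality of 41 there. No Strelka call in Tet1 lay in the catalytic region. The Tet2 call in animal 54, at position 133466671 of chromosome 3, lay in the 3′ UTR with a quality of 28 in the same deposited table.

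**Figure D5:**
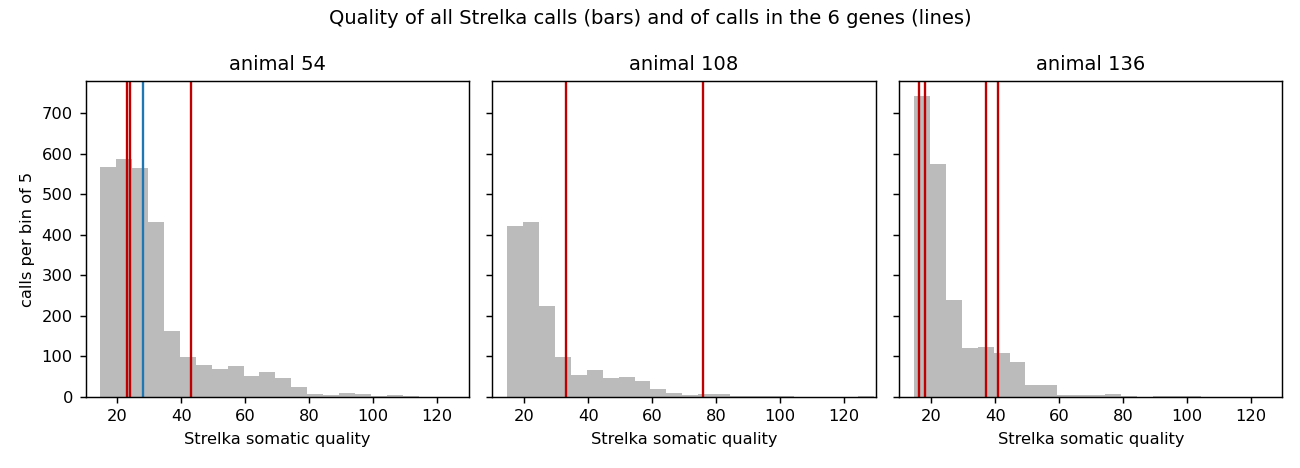
Distribution of the Strelka somatic quality (x axis, as the authors deposited it) over all single nucleotide calls of each animal (grey bars, number of calls per bin of 5). Red lines mark the missense calls in the 6 genes and the blue line the Tet2 3′ UTR call; the line furthest right, at 76 in animal 108, is R362H of Dnmt3a.

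Base changes were counted for 3 classes of sites. C to T changes (with G to A) made up 28 of 64 (43.8%) of the inherited Dnmt1 single nucleotide sites, 4 of 10 of the Strelka calls in the 6 genes and 1 of 17 (5.88%) of the private sites in the other 5 genes. Over the whole lists C to T made up 28.1 to 33.4% of inherited sites, 31.1 to 32.5% of Strelka calls, 20.1 to 26.1% of marrow-private sites and 23.7 to 25.7% of ear-private sites. C to A changes (with G to T) made up 2 of 64 (3.12%) of the inherited Dnmt1 sites, 3 of 10 of the Strelka calls and 8 of 17 (47.1%) of those private sites. Over the whole lists they were 9.02 to 12.1% of inherited sites, 40.5 to 42.2% of Strelka calls, 18.9 to 27.9% of marrow-private sites and 17.7 to 25.3% of ear-private sites. These shares were not tested. Neighbouring Dnmt1 sites were mostly listed together in the same animals, so they were not taken as independent.

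Around the 6 enzymes, 30 genes of the same pathway were looked up. They include recruiters of Dnmt1, readers of methylation and the enzymes that excise or supply its intermediates. In at least 1 animal 6 of the 30 (20%) had an inherited coding site, against 13.3% of all protein-coding genes, and 3 (10%) an inherited protein-altering one, against 7.15%. Tdg, the glycosylase that excises the products of TET oxidation, had 5 inherited missense sites in animals 54 and 108 each and none in animal 136. Its E57A had 26 of 40 marrow reads (65.0%) and 25 of 58 ear reads (43.1%) for animal 54, and 21 of 40 marrow reads (52.5%) and 19 of 49 ear reads (38.8%) for animal 108. Its S388G leaned the other way, with 9 of 30 marrow reads (30%) and 18 of 40 ear reads (45%) for animal 54, and 8 of 43 marrow reads (18.6%) and 16 of 37 ear reads (43.2%) for animal 108. A386T, 6 bases from S388G and so read in part from the same fragments, also had the lower fraction in marrow in both animals. So did V190A, numbered in a form of 208 residues, and A317T did in animal 54 alone. Of the 10 comparisons at these 5 sites marrow was above ear in 3 and below it in 7. None reached an adjusted p of 0.05 (Fisher's exact test), and 3 had an unadjusted p under 0.05. D129N of Mbd4, a glycosylase that repairs deaminated methylcytosine, was inherited in all 3 animals, with 45.6%, 49.1% and 44.2% of marrow reads and 53.7%, 47.7% and 38.5% of ear reads in animals 54, 108 and 136. An in-frame deletion in a repeat of Idh2 was read in 100% of reads in all 6 samples, and further Idh2 changes in that repeat were listed in fewer reads.

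Strelka had protein-altering calls in 3 of the 30 (10%), close to the 10.5% of all protein-coding genes. V376I of Uhrf1, which brings Dnmt1 to hemimethylated DNA, in animal 54 had a quality of 18, and E203G of Cxxc4 in animal 136 had a quality of 16 in the authors' deposited table. A310T of Ogt, the O-GlcNAc transferase that binds TET proteins, had a quality of 30 in animal 54 there. This Ogt change was also in the marrow list of animal 54, with 6 of 41 reads (14.6%), and not in the ear list. Cxxc1 had an in-frame deletion in a repeat in ear of animal 108 alone, with 6 of 41 reads (14.6%). VarScan2 had no protein-altering call in the 30.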

How the data were processed

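Marrow and ear DNA of 3 mice had been captured with a 50 Mb exon kit and sequenced, per the labels' protocols, at a mean coverage of 100 reads. Named in the submitters' processing notes are Bowtie2, SAMtools, GRCm38 and mm9. All 105 in-gene sites of the 6 genes lay inside the gene's RefSeq span in GRCm38.p6, and 0 listed sites lay in their 10 RefSeq promoter windows. The deposited all-variant lists hold a raw depth, at least 11 reads at every listed site, and read counts per allele and strand. Depth here is the sum of the latter counts, which is never above the raw depth and can be as low as 1. The authors' VarScan2 lists give read counts, percent variant fractions and a somatic p-value, and their Strelka lists a quality. What either caller filtered on is not stated in the sources used here.

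Genes were found by the deposited SnpEff gene name. A change of the 6 genes in the all-variant lists was described by its annotation of highest impact. The coding changes of the 6 genes are numbered on the longest annotated protein. V190A of Tdg is numbered on a shorter form. Coding means an impact of LOW or above, protein-altering MODERATE or HIGH. Sites matched by position and alleles. Tests were run in Python 3.11.15 with scipy 1.17.1, and the Fisher step was checked on simulated data. Per the labels, samples with 1 number share an animal. Marrow and ear deviations within the 3 animals correlated at 0.124, 0.155 and 0.0949 over 4679 sites. Between different animals the correlations ran from -0.116 to -0.0125. A protein table was not used here, so domains were named from general knowledge and the planned motif search was not run. Alternatives were depth, matching, pairing, quality and leaving out animals. The members, the 30 further genes and the tests were chosen with earlier results of these data known. The rule for named genes took the 6 members with every coding call, Srsf2, and those of the 30 with a protein-altering call. P-values over animals rest on 3 animals for private sites and do not measure their spread, which the SD gives. For the variant fraction they cover 2 animals, since animal 136 had no inherited site in the 6 genes.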

Additional observations from a re-analysis of the deposited data

How the results depend on the processing

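Of the 25 alternatives run, 20 kept the direction and the side of the threshold, or stayed within 1.5 times for a count. The marrow-minus-ear difference in private sites was -1.67 with marrow and ear paired and, with no replicate block, -1.67 with p = 0.9 (exact permutation test, two-sided). It ranged from -10 to 9.5 on leaving out each animal, the positive value being that without animal 54. The difference in mean variant fraction at inherited sites was 0.96 percentage points, also with no replicate block (p = 1, exact permutation test). It was -1.58 over coding sites and ranged from -0.22 to 2.14 on leaving out each animal, the negative value being that without animal 108. Sites that differed between marrow and ear numbered 0 in each setting, including a Cochran-Mantel-Haenszel test that took the animal as replicate block, in which 7 of 70 sites had an unadjusted p under 0.05. Protein-altering somatic-list calls numbered 9, but 5 at a Strelka quality of at least 30 or a VarScan2 p under 0.01, because fewer calls pass, and 5 to 7 on leaving out each animal, with 5 without animal 136. Inherited sites numbered 70, 60 at 20 reads and 65 to 70 on leaving out each animal. Private sites without Dnmt1, an alternative chosen after seeing the data, also differed by -1.67. The exact permutation test over animals could not go below 0.25 with 3 pairs, or below 0.5 with the 2 animals that carried inherited sites. Depth is unknown where no variant was listed.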
